A study of Schizosaccharomyces pombe with 4 samples.

Results

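The transcripts described here encode the translation factors of the fission yeast Schizosaccharomyces pombe, the proteins that start, extend and end a polypeptide on the ribosome. Members were the array genes whose symbol begins with tif, sup, eif or tef followed by a number, with eft201 and eft202. The rule found 35 of 4880 named genes, each with 1 spot and a value on all 4 arrays. The 3 genes once called ef1a-a, ef1a-b and ef1a-c are tef101, tef102 and tef103 in the RefSeq table. Several partners carry another current symbol and so fall outside the rule, among them erf1, formerly sup45, and the eIF3 genes moe1, sum1 and int6.

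Each array paired polyA RNA of 1 strain, collected 30 min after a shift to 36 °C, with polyA RNA from that strain's logarithmic culture in YES medium at 25 °C. The strains were JV565, which carries the temperature-sensitive allele mmi1-ts3, and JV558, labelled wild-type, with 2 arrays each. Other alleles of these strains are not named in the labels, and each culture was grown from a single colony. Mmi1 is an RNA-binding protein that directs meiotic transcripts to destruction in growing cells, and 36 °C is the restrictive temperature of the mutant allele. The comparison addresses how expression changes when Mmi1 function is lost. Levels at 25 °C were never set side by side between the strains, so each value is a response within a strain.

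Initiation begins when eIF2, loaded with initiator tRNA, joins the small ribosomal subunit together with eIF1, eIF1A, eIF3 and eIF5. The cap-binding factors of the eIF4 group bring in the mRNA, and eIF5B joins the large subunit. During elongation eEF1A delivers aminoacyl-tRNA and eEF2 moves the ribosome along, with eEF3 as a further ATPase in fungi. eRF1 and eRF3 release the finished chain. Translation factor and ribosomal protein genes are commonly lowered together in yeasts under environmental stress.

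Values are log2 ratios of 36 °C over 25 °C, each array centred on its median over 4771 tested genes, so that 0 marks the median transcript and −1 a level of 1 in 2. Values of an array set are given in the order replicate 1, replicate 2. A gene is called higher or lower where limma's moderated test against 0 gave an adjusted p under 0.05 over all tested genes. Positive was read as higher at 36 °C. This reading rests on the values, since 13 of 14 heat shock genes lay above 0 on all 4 arrays, the exception being mas5. In such bulk RNA a fall in every cell and a larger fall in some cells cannot be told apart, and a change common to all transcripts is removed by the centring. Between the arrays of a strain, members differed by a median of 0.18 in mmi1-ts3 and 0.22 in the wild type, against 0.29 and 0.34 over all tested genes. The mmi1 transcript itself had 0.24 and 0.66 in mmi1-ts3, against −0.24 and 1.01 in the wild type, and a transcript level is no check of a temperature-sensitive allele.

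Translation factor transcripts were lower after 30 min at 36 °C in both strains. In mmi1-ts3, 26 of 35 were called lower and 0 higher, where 19.6% of all tested genes were called lower and 14.9% higher. In the wild type, 21 of 35 were called lower and 0 higher, where 14.5% of all tested genes were called lower and 13.5% higher. The median member stood at −0.94 in mmi1-ts3 and −0.84 in the wild type, against 0.01 and 0.03 for all tested genes, which is 0.52 and 0.559 of the 25 °C level. At an unadjusted p under 0.05, 32 members were lower in mmi1-ts3 and 26 in the wild type, where 25.2% and 20.9% of all tested genes were. At that threshold 0 members were higher in either strain, where 21.1% of all tested genes were higher in mmi1-ts3 and 20.7% in the wild type. The mean was at least 2-fold lower for 16 members in mmi1-ts3 and 11 in the wild type, against 11.9% and 8.45% of all tested genes. Calls in both strains numbered 20, against 13.3% of all tested genes, calls in mmi1-ts3 alone 6, in the wild type alone 1, and 8 members were called in neither. Of all tested genes, 933 were called lower in mmi1-ts3, 693 in the wild type and 635 in both. Calls in mmi1-ts3 alone were therefore the more frequent over all genes too. A call in 1 strain alone is no measure of a strain difference, which is tested below. Of the 35, 30 lay below 0 on all 4 arrays, as did 31.6% of all tested genes, and 27 were among the lowest 20% of genes by the mean of the 4 arrays.

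The count of calls depended on the number of arrays. Without mmi1-ts3 replicate 1, 16 members were called lower in mmi1-ts3, where 11.2% of all tested genes were, and without replicate 2, 12 were, where 9.69% of all were. Without wild-type replicate 1, 10 members were called lower in the wild type, where 9.09% of all tested genes were, and without replicate 2, 8 were, where 6.32% of all were. Whichever array was left out, tif11, tif471, tif1, tif45, tef3, tif211, tif213, tif306, tif308 and tif313 were still called lower in mmi1-ts3. In the wild type tif11, tif471, tif1, tif225, tif306 and tif313 were. The share of all tested genes that kept a call in this way was not counted.

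**Figure D1:**
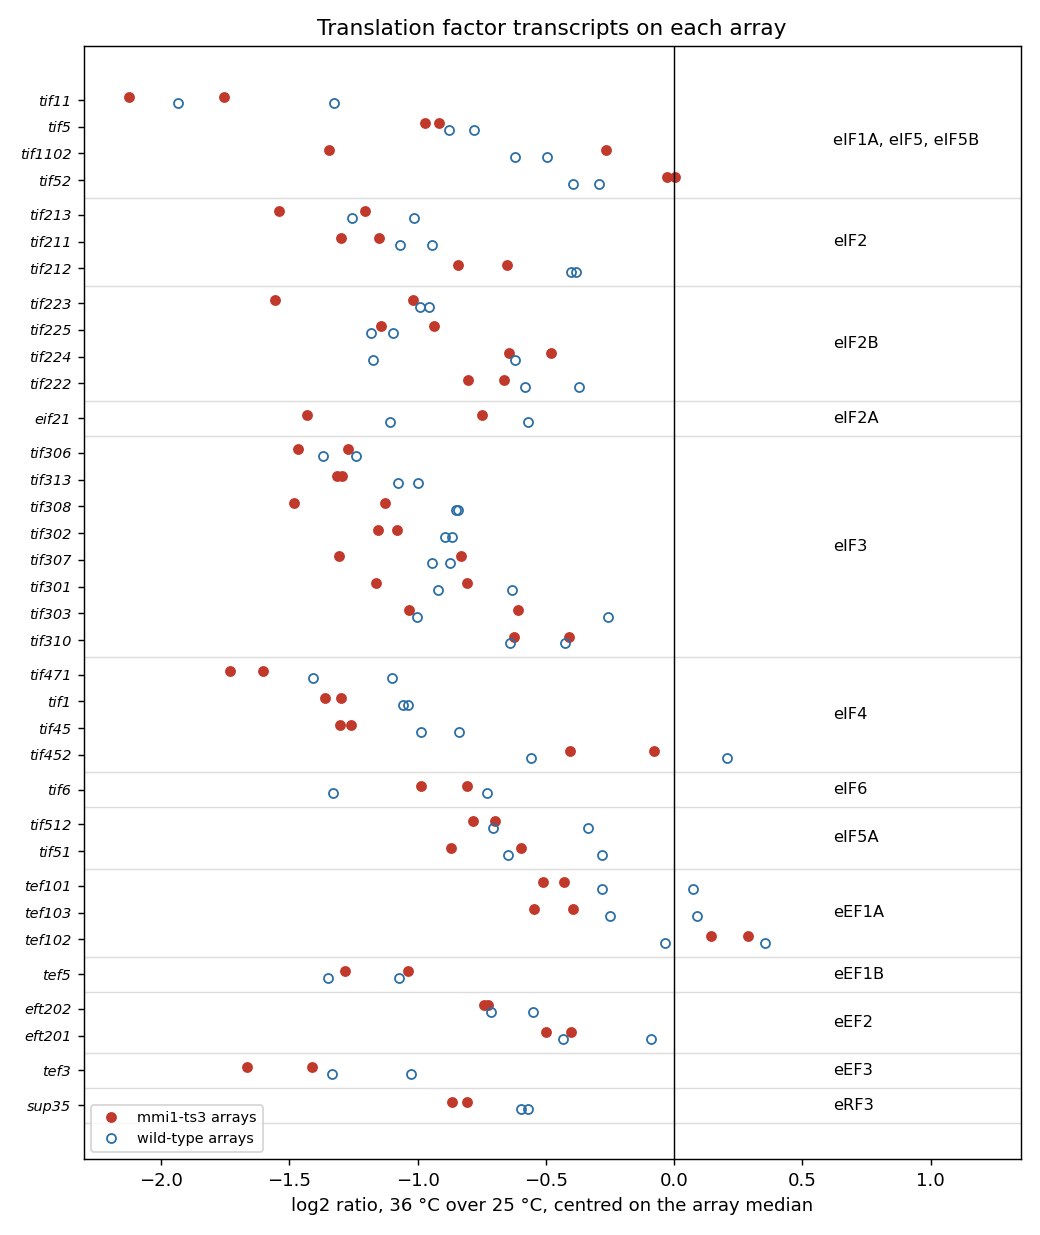
Log2 ratio of 36 °C over 25 °C, centred on the array median (horizontal axis), for each of the 35 translation factor genes (rows, grouped by factor) on the 2 mmi1-ts3 arrays (filled red) and the 2 wild-type arrays (open blue). The gene tif11 lies lowest, at −1.75 and −2.12 in mmi1-ts3 and −1.33 and −1.93 in the wild type, and tef102 is the one gene whose mean is above 0 in both strains.

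Among the factors that guide scanning and start-codon selection, tif11 (SPOM_SPBC25H2.07), which encodes eIF1A, fell most of all members. Its values were −1.75 and −2.12 in mmi1-ts3, against −1.33 and −1.93 in the wild type. The arrays of the strains overlapped. Its means were −1.94 ± 0.26 in mmi1-ts3 (SD, n = 2, adjusted p = 0.00286, limma) and −1.63 ± 0.43 in the wild type (SD, n = 2, adjusted p = 0.00549, limma), or 26.1% and 32.3% of the 25 °C level. By the mean over the 4 arrays it ranked 133 from the lowest of 4771 genes.

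The gene tif5, for eIF5, the GTPase-activating protein of eIF2, fell in both strains, to −0.94 ± 0.04 in mmi1-ts3 and −0.83 ± 0.07 in the wild type. The gene tif52, for eIF5B, lay near 0 in mmi1-ts3, with 0.00 and −0.03 in mmi1-ts3, against −0.39 and −0.29 in the wild type. It was the only member with both mmi1-ts3 arrays above both wild-type arrays, and was called in neither strain (adjusted p = 0.959 and 0.172, limma). For tif1102 the mmi1-ts3 arrays disagreed, at −0.27 and −1.35, against −0.50 and −0.62 in the wild type, and no call was made. The 12 spots around tif1102 in the table, 6 on each side, were also lower on mmi1-ts3 replicate 2 than on replicate 1, by a median difference of −0.89, where tif1102 itself differed by −1.08, and the part of position in its value was not tested.

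The trimeric eIF2, which carries initiator tRNA to the ribosome, fell with all 3 of its subunits in mmi1-ts3, and in the wild type 2 of the 3 were called. For the alpha subunit, tif211 (SPOM_SPAC3G9.09C), values were −1.15 and −1.30 in mmi1-ts3, against −0.94 and −1.07 in the wild type. For the gamma subunit, tif213, they were −1.54 and −1.20 in mmi1-ts3, against −1.26 and −1.02 in the wild type. For the beta subunit, tif212, they were −0.65 and −0.84 in mmi1-ts3, against −0.40 and −0.38 in the wild type. The strains' arrays did not overlap for tif211 and tif212 and overlapped for tif213. The means were −1.23 ± 0.11, −1.37 ± 0.24 and −0.75 ± 0.13 in mmi1-ts3 for alpha, gamma and beta, with an adjusted p of 0.00455, 0.00439 and 0.0204 (limma). In the wild type they were −1.01 ± 0.09 and −1.14 ± 0.17 for alpha and gamma, and −0.39 ± 0.01 for beta, which was not called there (adjusted p = 0.137, limma).

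Subunits of eIF2B, the exchange factor that reloads eIF2 with GTP, were measured for 4 members. In mmi1-ts3 the gamma (tif223, −1.29 ± 0.38), epsilon (tif225, −1.04 ± 0.14) and beta (tif222, −0.73 ± 0.10) subunits were called lower. In the wild type tif225 (−1.14 ± 0.06), tif223 (−0.97 ± 0.02) and tif224 (−0.90 ± 0.39) were. The delta subunit tif224 was the member called in the wild type alone, with −0.64 and −0.48 in mmi1-ts3, against −0.62 and −1.18 in the wild type. Its strains overlapped because wild-type replicate 1 lay between the mmi1-ts3 arrays. The 12 neighbouring spots of tif224 were lower on wild-type replicate 2 than on replicate 1 by a median difference of −0.47, where tif224 itself differed by −0.55. The fifth subunit, gcn3, is outside the rule and was called in neither strain (−0.54 ± 0.60 in mmi1-ts3 and −0.25 ± 0.49 in the wild type). The gene eif21, for eIF2A, fell in mmi1-ts3 (−1.09 ± 0.48, adjusted p = 0.0210) and missed the threshold in the wild type (−0.84 ± 0.38, adjusted p = 0.0538, limma).

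The large scaffold eIF3 bridges the small subunit and the mRNA-bound factors. Of its 8 subunits in the rule, 7 were called lower in mmi1-ts3 and 6 in the wild type, where 19.6% and 14.5% of all tested genes were. The medians of the 8 were −1.09 and −0.86. The lowest was tif306, for subunit f, with −1.46 and −1.27 in mmi1-ts3, against −1.24 and −1.37 in the wild type. Its arrays overlapped between the strains, and its means of −1.37 ± 0.14 in mmi1-ts3 and −1.31 ± 0.09 in the wild type differed by −0.06 ± 0.24 (SE). For tif308, subunit h, the values were −1.13 and −1.48 in mmi1-ts3, against −0.85 and −0.84 in the wild type. Both mmi1-ts3 arrays lay below the wild-type arrays, whose values were nearly equal.

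The other eIF3 means were −1.30 for tif313 (m), −1.12 for tif302 (b), −1.07 for tif307 (g), −0.99 for tif301 (a), −0.82 for tif303 (c) and −0.52 for tif310 (j) in mmi1-ts3. In the wild type they were −1.04 for tif313, −0.88 for tif302, −0.91 for tif307, −0.78 for tif301, −0.63 for tif303 and −0.53 for tif310. Subunit j, which binds loosely in other species, was called in neither strain, and subunit c was not called in the wild type (adjusted p = 0.109, limma). In mmi1-ts3 subunit c was close to the threshold (adjusted p = 0.0486, limma). That call was lost with no centring (adjusted p = 0.0809) and with scaling to a common spread (adjusted p = 0.0711, limma). Among eIF3 subunits the wild-type arrays were furthest apart for tif303, by 0.745. Outside the rule, moe1 for subunit d (−1.32 ± 0.37 in mmi1-ts3 and −1.12 ± 0.15 in the wild type) and sum1 for subunit i (−0.92 ± 0.18 and −0.79 ± 0.15 in the same order) were called lower in both strains. The gene int6, for subunit e, had a value on 1 array of each strain, −0.97 in mmi1-ts3 and −1.16 in the wild type, and was not tested.

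In the eIF4 group, which recognises the cap and unwinds the leader, tif471 (SPOM_SPAC17C9.03) for the scaffold eIF4G fell most. Its values were −1.73 and −1.60 in mmi1-ts3, against −1.41 and −1.10 in the wild type. The helicase eIF4A, tif1, had −1.36 and −1.30 in mmi1-ts3, against −1.06 and −1.04 in the wild type. The cap-binding protein eIF4E, tif45, had −1.30 and −1.26 in mmi1-ts3, against −0.99 and −0.84 in the wild type. For all 3 genes both mmi1-ts3 arrays lay below both wild-type arrays, and all 3 were called lower in each strain. The means were 31.5%, 39.8% and 41.1% of the 25 °C level in mmi1-ts3 and 41.9%, 48.4% and 53.2% in the wild type, for tif471, tif1 and tif45 in that order.

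The second eIF4E gene, tif452, lay nearer to 0. It had −0.08 and −0.41 in mmi1-ts3, against 0.21 and −0.56 in the wild type, and was called in neither strain (adjusted p = 0.469 and 0.625, limma). The wild-type values enclosed those of mmi1-ts3, so no direction was resolved for tif452 beyond its spread between arrays. Its ratio was above that of tif45 on each of the 4 arrays. The gene tif6, for eIF6, which keeps the large subunit from joining early and serves in its assembly, was called lower in both strains, with −0.90 ± 0.13 in mmi1-ts3 and −1.03 ± 0.42 in the wild type.

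Elongation factors ranged from well below the median transcript to slightly above it. Of 9 members, 5 were called lower in mmi1-ts3 and 3 in the wild type, where 19.6% and 14.5% of all tested genes were. The gene tef3, for eEF3, had −1.66 and −1.41 in mmi1-ts3, against −1.33 and −1.03 in the wild type. The strains did not overlap, and both means passed the test (−1.54 ± 0.18 in mmi1-ts3, adjusted p = 0.00316, and −1.18 ± 0.22 in the wild type, adjusted p = 0.00835, limma). The gene tef5, for the exchange factor eEF1B beta, fell in both strains, to −1.16 ± 0.17 in mmi1-ts3 and −1.21 ± 0.19 in the wild type.

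None of the 3 eEF1A genes was called in either strain. For tef101 the values were −0.43 and −0.51 in mmi1-ts3, against −0.28 and 0.07 in the wild type. For tef103 they were −0.55 and −0.40 in mmi1-ts3, against −0.25 and 0.09 in the wild type. For tef102 they were 0.29 and 0.14 in mmi1-ts3, against 0.36 and −0.03 in the wild type. So tef101 and tef103 lay below both wild-type arrays in mmi1-ts3 while tef102 overlapped, and tef102 was above the other 2 genes on 3 of the arrays and below them on wild-type replicate 2. With each array centred on a running median of neighbouring spots in table order, chosen after the data were seen, the means of tef102 were −0.15 in mmi1-ts3 and −0.26 in the wild type, so its sign depends on that choice. These genes encode highly similar proteins, the probe sequences were not used here, and cross-hybridisation among their spots was not tested.

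The eEF2 genes, eft201 and eft202, also had unlike values. Neither the difference between them nor cross-hybridisation between their spots was tested. The values of eft202 were −0.72 and −0.74 in mmi1-ts3, against −0.71 and −0.55 in the wild type, and both means passed (adjusted p = 0.0212 and 0.0395, limma). Those of eft201 were −0.40 and −0.50 in mmi1-ts3, against −0.43 and −0.09 in the wild type, and neither mean passed (adjusted p = 0.104 and 0.318, limma). On each of the 4 arrays eft202 lay below eft201. Both eIF5A genes, whose product helps ribosomes through difficult peptide bonds, were called lower in mmi1-ts3, tif51 at −0.73 ± 0.19 and tif512 at −0.74 ± 0.06. In the wild type tif51 stood at −0.47 ± 0.26 and tif512 at −0.52 ± 0.26, and neither was called there.

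For termination, sup35, the GTPase eRF3, had −0.81 and −0.87 in mmi1-ts3, against −0.60 and −0.57 in the wild type. The strains did not overlap and both means were called lower (−0.84 ± 0.04, adjusted p = 0.0132, and −0.58 ± 0.02, adjusted p = 0.0463, limma). The wild-type call was lost with the running-median centring (adjusted p = 0.0961). Its partner erf1, outside the rule, fell further, with −1.57 ± 0.13 in mmi1-ts3 and −1.19 ± 0.05 in the wild type, and was called in both.

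**Figure D2:**
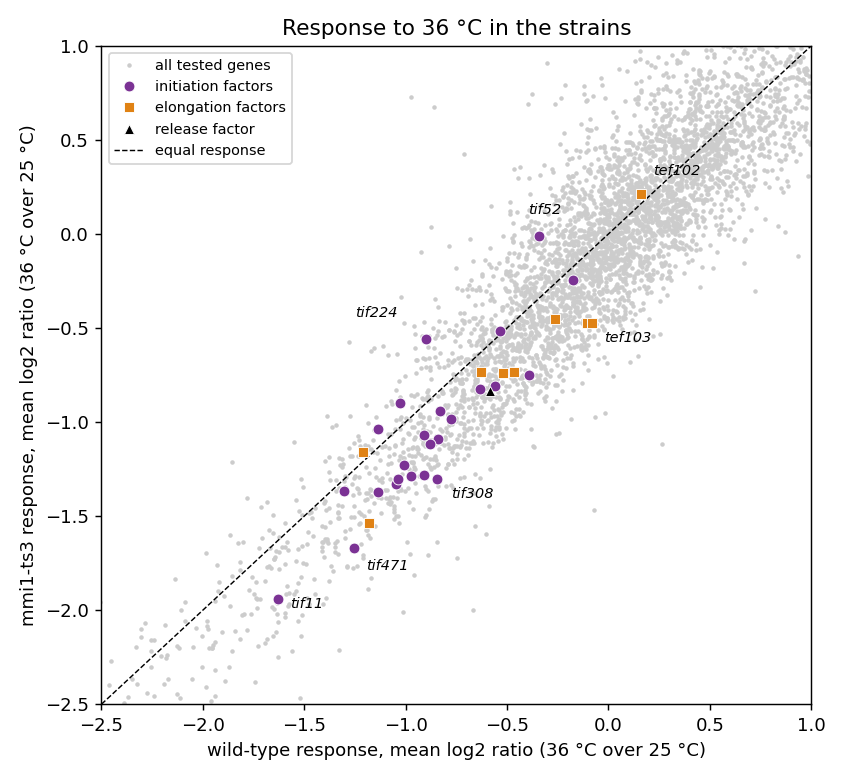
Mean log2 ratio of each gene in the wild type (horizontal axis) and in mmi1-ts3 (vertical axis) for all tested genes (grey) and the initiation, elongation and release factors (coloured), with a dashed line of equal response; genes beyond −2.5 or 1 are outside the frame. Of the 35 factors, 28 lie below the line and 7 above it, among them tif52 and tif224. The median difference of all tested genes is also below the line, at −0.07.

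The responses of the strains were next compared with each other. Across the 35 members the wild-type and mmi1-ts3 means had a Pearson r of 0.904, and 0.941 over all tested genes, given as a description since genes are not replicates. The response in mmi1-ts3 was the lower one for 28 members and the higher one for 7, with a median difference of −0.24, against −0.07 for all tested genes. The median of all tested genes thus lay on the same side, and the share of them with a negative difference was not counted. In limma's test of the difference 0 members passed after adjustment, where the lowest value among them was an adjusted p of 0.998. Before adjustment 0 members had a p under 0.05 either, and the lowest was 0.122. Over all tested genes 0 passed the adjusted test, 0%, and at an unadjusted p under 0.05, 0.859% were lower and 1.03% higher.

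The largest differences were −0.46 ± 0.25 (SE) for tif308, −0.41 ± 0.25 for tif471, −0.39 ± 0.25 for tef103, −0.37 ± 0.23 for tif45 and −0.37 ± 0.25 for tef101. At the other end stood tif224 at 0.34 ± 0.29 and tif52 at 0.33 ± 0.23. The SE of a member's difference ran from 0.23 to 0.40. On the uncoded arrays (replicate 1 of each strain, with no code in the title) 30 members had a negative difference, with a median of −0.21 against −0.09 for all tested genes. On the coded arrays 26 did, with a median of −0.23 against −0.06. For neither array set was the share of all tested genes with a negative difference counted.

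Both mmi1-ts3 arrays lay below both wild-type arrays for 16 members, or 45.7%, where 20.4% of all tested genes did so, and above them for 1, where 9.31% did so. The 16 included 3 of the 4 eIF4 genes, 2 of the 3 eEF1A genes, 2 eIF2 subunits and sup35. Such separation was not particular to the translation factors. Among the lists described below it held for 73.2% of ribosomal protein, 57.1% of mRNA-binding and 47.1% of synthetase genes. It held for 40% of eIF2 kinase and activator, 33.3% of other cytosolic factor and 22.2% of biogenesis genes. For TOR, rescue and mitochondrial factor genes the shares were 20%, 14.3% and 0%. The split of the members depended on the scaling of the arrays. After quantile normalization 6 members lay below and 6 above, where 15.8% and 11.8% of all tested genes did so, and the median difference was −0.09, against −0.03 for all tested genes. A count of 6 of 35 is near that share of all genes. With no centring 12 lay below and 2 above, where 15.1% and 12.7% of all tested genes did so. With the running-median centring 10 lay below and 2 above, where 16.7% and 11.4% did so.

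**Figure D3:**
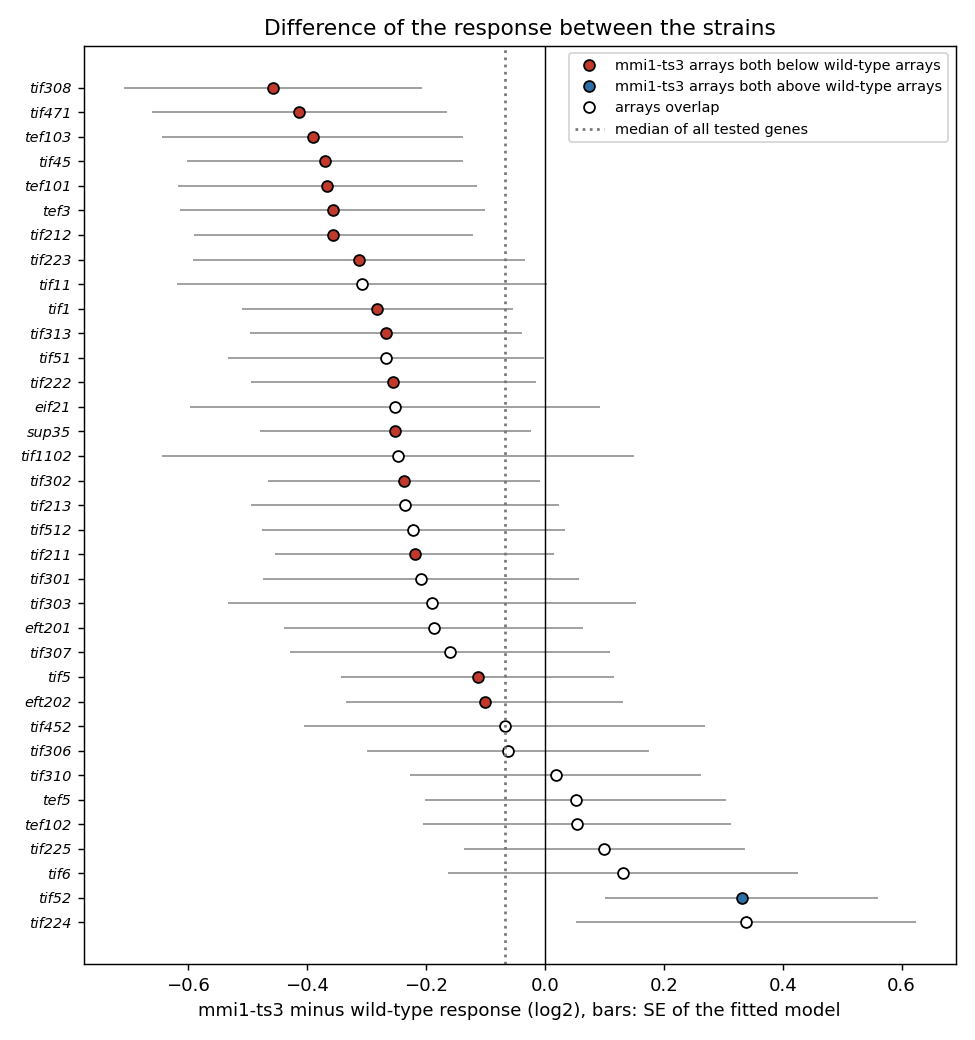
Difference of the response, mmi1-ts3 minus wild-type (log2), for each translation factor gene with the SE of the fitted model as bars (n = 2 arrays per strain); red marks genes with both mmi1-ts3 arrays below both wild-type arrays and blue the one gene above. The values run from −0.46 for tif308 to 0.34 for tif224, and the dotted line at −0.07 is the median of all tested genes.

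The arrays of each set deviated together to some degree. The difference of replicate 2 from replicate 1 had a Pearson r between the strains of 0.483 over members and 0.379 over all tested genes. It also followed table position, with r = 0.389 in mmi1-ts3 and 0.361 in the wild type between a member and the median of its 12 neighbouring spots. These are descriptions over 35 spots that share arrays, and their part in the results was not tested beyond the running-median centring. Under it 26 members were called lower in mmi1-ts3, where 21% of all tested genes were, and 18 in the wild type, where 17.1% were. Gene length in the RefSeq table, from 610 to 4627 bases among members, had a Pearson r of −0.07 and a Spearman rho of −0.06 with the 4-array mean.

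Other genes of the translation machinery were followed on the same arrays, and both lower and higher calls occurred among them. Over all tested genes, 19.6% were called lower and 14.9% higher in mmi1-ts3, and 14.5% and 13.5% in the wild type. The counts of every list below are to be read beside these shares. Aminoacyl-tRNA synthetases charge tRNA with amino acids. Of 17 tested genes listed by symbol for this class, 8 were called lower in mmi1-ts3 and 3 in the wild type. The wild-type count is near the share of all tested genes called lower. With 0 called higher, the medians were −0.56 in mmi1-ts3 and −0.44 in the wild type. In mmi1-ts3 4 were called lower without mmi1-ts3 replicate 1 and 2 without replicate 2, and in the wild type 1 was without wild-type replicate 1. The lowest were prs1, at −2.02 ± 0.07 in mmi1-ts3 and −1.64 ± 0.10 in the wild type, and nrs1, at −1.37 ± 0.21 and −1.004 ± 0.40 in the same order. The highest was frs1, at 0.14 ± 1.06 in mmi1-ts3 and 0.17 ± 0.52 in the wild type, and it was not called. Next were ers1 (0.23 ± 0.17 and 0.05 ± 0.28 in the same order) and qrs1 (0.02 ± 0.01 and −0.04 ± 0.37), neither called. The gene ers1 is of another class in fission yeast, so the 17 genes and their medians include a gene that is no synthetase.

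Of 6 tested cytosolic factors outside the name rule, 4 were called lower in each strain, sce3, erf1, moe1 and sum1. Without mmi1-ts3 replicate 2, 2 were called in mmi1-ts3, and without wild-type replicate 1, 2 were in the wild type. The gene sce3, for eIF4B, was the lowest, at −1.93 ± 0.02 in mmi1-ts3 and −1.49 ± 0.16 in the wild type. The highest was sui1, for eIF1, at −0.04 ± 0.28 in mmi1-ts3 and 0.04 ± 0.39 in the wild type. The scanning partner of eIF1, eIF1A, was the lowest member of the main set (tif11), and the difference between tif11 and sui1 was not tested.

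Of 7 mRNA-binding proteins that act in translation, 6 were called lower in mmi1-ts3 and 5 in the wild type. In mmi1-ts3 3 were called without mmi1-ts3 replicate 1, and in the wild type 3 were without wild-type replicate 1 and 2 without replicate 2. The helicase gene sum3 (Ded1) had −2.39 ± 0.14 in mmi1-ts3 and −2.33 ± 0.20 in the wild type, and sla1, the La protein, −2.57 ± 0.31 and −2.15 ± 0.03. The poly(A)-binding protein gene pabp had −1.07 ± 0.24 in mmi1-ts3 and −0.85 ± 0.08 in the wild type. The highest were tma20, at −0.53 ± 0.17 in mmi1-ts3 and −0.21 ± 0.13 in the wild type and called in neither strain, and oga1, at −1.04 ± 0.10 and −0.56 ± 0.16 and called in mmi1-ts3. As first listed, this group held pab1 and stm1, which are of other classes in fission yeast, and 5 of 8 were called lower in mmi1-ts3 and 4 in the wild type.

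Of 6 tested mitochondrial translation factors, limma called 0 in either strain, with medians of 0.04 in mmi1-ts3 and 0.13 in the wild type. The lowest were mrf1, a release factor, at −0.53 ± 0.32 in mmi1-ts3 and −0.48 ± 0.43 in the wild type, and guf1 at −0.44 ± 0.46 and −0.45 ± 0.85. The highest were tuf1, the mitochondrial EF-Tu, at 0.30 ± 0.16 and 0.19 ± 0.13, and tsf1 at 0.26 ± 0.20 and 0.15 ± 0.18. At an unadjusted p under 0.05 the count was also 0 in both strains.

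Among 5 kinases of the eIF2 alpha subunit and their activators, hri1, a kinase that inhibits initiation by phosphorylating eIF2 alpha, rose in both strains. Its values were 2.65 and 1.72 in mmi1-ts3, against 2.37 and 2.22 in the wild type, and the wild-type arrays lay between those of mmi1-ts3. The means were 2.18 ± 0.66 in mmi1-ts3 (adjusted p = 0.00313) and 2.29 ± 0.11 in the wild type (adjusted p = 0.00331, limma). The second kinase hri2 was not called (0.54 ± 0.06 and 0.62 ± 0.40 in the same order), nor were gcn2, gcn1 and gcn20, whose means ran from −0.15 to 0.28.

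Of 7 rescue and recycling genes, 1 was called lower and 1 higher in each strain. These counts are near the shares of all tested genes, 19.6% lower and 14.9% higher in mmi1-ts3, and 14.5% and 13.5% in the wild type. The gene called lower was rli1, the recycling ATPase, at −0.97 ± 0.21 in mmi1-ts3 and −1.15 ± 0.08 in the wild type. The one called higher was hbs1, which frees stalled ribosomes, at 1.23 ± 0.25 and 1.04 ± 0.26. The 2nd lowest and 2nd highest by the mean of the 4 arrays were dom34, at −0.66 ± 0.43 in mmi1-ts3 and −0.29 ± 0.40 in the wild type, and rqc2, at 0.20 ± 0.20 and 0.22 ± 0.28, neither called. The count called lower was 0 in mmi1-ts3 without mmi1-ts3 replicate 1 and 0 in the wild type without wild-type replicate 2. The count called higher was 0 in mmi1-ts3 without mmi1-ts3 replicate 2 and 0 in the wild type without wild-type replicate 1. Of 15 genes of the TOR kinases and partners, which link growth to nutrients, psk1, an S6 kinase, was lower in both strains (−1.10 ± 0.20 in mmi1-ts3 and −0.88 ± 0.25 in the wild type). Also called were sck2 (−1.37 ± 0.85) and tor2 (−0.55 ± 0.07) as lower in mmi1-ts3, and wat1 as higher in both (0.61 ± 0.06 in mmi1-ts3 and 0.86 ± 0.14 in the wild type). In the wild type sck2 had −0.95 ± 0.24 and tor2 −0.20 ± 0.07, neither called. For sck2 the strains overlapped, with −1.97 and −0.78 in mmi1-ts3, against −1.12 and −0.78 in the wild type. The 3 TOR genes called lower in mmi1-ts3 are near the share of all tested genes, and the other TOR counts, of 1 each, are below it. With 1 mmi1-ts3 array left out, 1 TOR gene was called lower in mmi1-ts3, and without mmi1-ts3 replicate 1, 0 were called higher there. For the wild type 0 were called lower without wild-type replicate 2, and 0 higher without either wild-type array, while with either mmi1-ts3 array left out 2 were called in each direction. The highest of them by mean was gad8, at 0.92 ± 0.78 and 1.01 ± 0.41, which was not called.

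Of 123 tested cytosolic ribosomal protein genes, 113 were called lower in mmi1-ts3 and 64 in the wild type, with medians of −0.96 and −0.65 and a median difference of −0.32. These counts rested on both arrays of a strain. In mmi1-ts3 48 were called lower without mmi1-ts3 replicate 1 and 25 without replicate 2. The wild-type count was 19 without wild-type replicate 1, 1 without replicate 2, and 42 without mmi1-ts3 replicate 2. The lowest were rps2802, at −1.70 ± 0.24 in mmi1-ts3 and −1.33 ± 0.43 in the wild type, and rpl102, at −1.50 ± 0.14 and −1.04 ± 0.22 in the same order. The highest were rpl501, called higher in both strains (1.34 ± 0.17 in mmi1-ts3 and 1.005 ± 0.35 in the wild type), and rps1402, called in neither (0.24 ± 0.22 and 0.29 ± 1.31). Many ribosomal proteins are encoded by pairs of near-identical genes, and how well the spots separate such pairs was not tested. The median difference was −0.23 for the synthetase list and −0.15 over 99 ribosome biogenesis genes taken by name pattern. The biogenesis genes had the lowest medians, −1.59 in mmi1-ts3 and −1.39 in the wild type. Of the biogenesis genes 77 were called lower in mmi1-ts3 and 73 in the wild type. The lowest were dbp3 (−3.29 ± 0.43 in mmi1-ts3 and −3.49 ± 0.49 in the wild type) and nip7 (−3.12 ± 0.03 and −2.94 ± 0.43), and the highest has1, called higher in both (1.25 ± 0.27 and 1.44 ± 0.22), and utp14, called in neither (0.83 ± 0.36 and 1.59 ± 3.47). Differences between these lists and the translation factors were not tested.

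**Figure D4:**
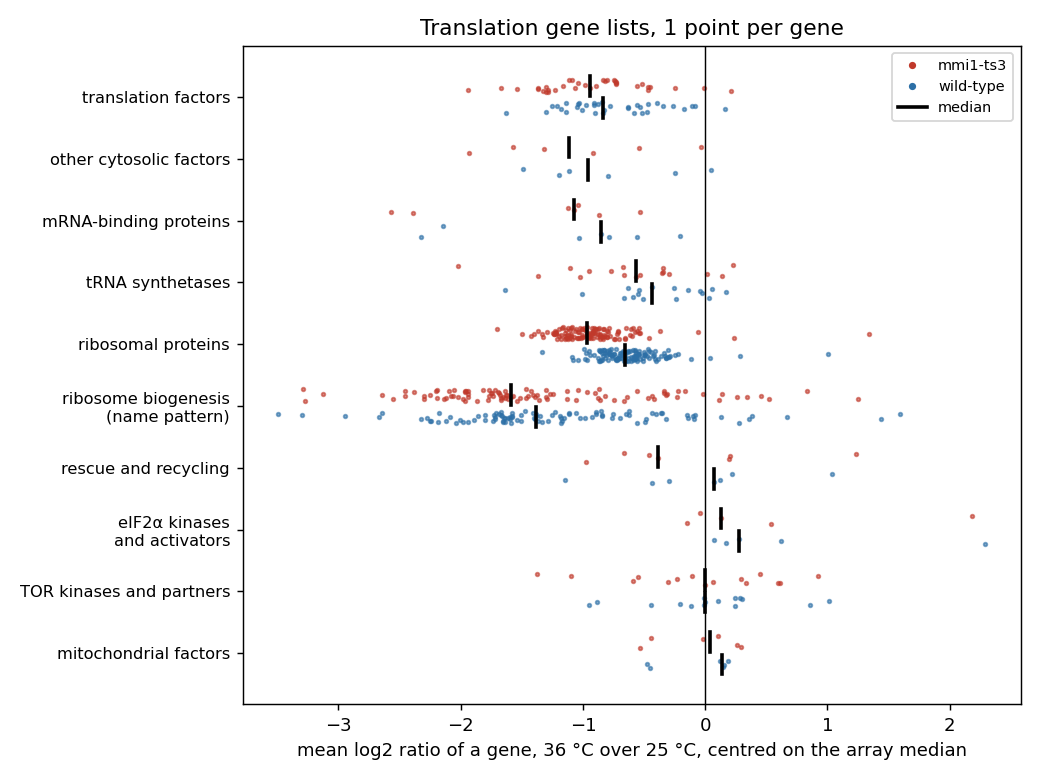
Mean log2 ratio of 36 °C over 25 °C, centred on the array median (horizontal axis), for each gene of the translation factors and 9 other translation-related lists (rows), with mmi1-ts3 in red above wild-type in blue and black bars at the medians. Translation factors have medians of −0.94 in mmi1-ts3 and −0.84 in the wild type, mitochondrial factors 0.04 and 0.13, and hri1 is the point above 2 among the kinases.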

How the data were processed

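PolyA RNA of 2 strains was compared on 4 arrays with 2 channels each, 36 °C in channel 1 and 25 °C in channel 2 of the same strain. The deposited values are log2 ratios, as read from the values. They reach 7.81, beyond the 4.82 that a 16-bit scanner could give on a base-10 scale; on a natural-log scale, which is not excluded, every change would be larger. For the authors' background correction, scaling, filters and ratio orientation, the methods are not given in the sources used here. Channel 1 carries Cy5 by its label and Cy3 by its labelling protocol, so the dyes are unsettled, and dye bias shared by all arrays cannot be told apart from the response to 36 °C.

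Spots with 1 gene were named through RefSeq gene IDs (ASM294v3), values of a gene were averaged, and the 4771 genes with values on all 4 arrays were centred on the array median and fitted with limma 3.58.1 in R 4.3.3 (a mean per strain, eBayes, 2 residual and 3.56 prior degrees of freedom), with Benjamini-Hochberg adjustment over all genes. The script was tested on simulated data. With 2 arrays a strain, the smallest two-sided p of an exact permutation test is 0.333, so none was run. No source states that the replicates were separate cultures, so p-values may measure technical spread alone, and the number of arrays limits the precision. Replicate numbers follow record order and pair no cultures; number 1 has no code in its title and number 2 has one. Alternatives were array scaling, genes kept, spot averaging, robust eBayes, thresholds, the array set as a replicate block, each array left out, and, chosen after seeing the data, centring on a running median over 101 spots in table order.

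Members, gene lists and rules were chosen with earlier results of these data known. Every member is named; values on all arrays are given for the 6 farthest from 0 and 4 nearest, the 5 largest strain differences, members whose arrays of a strain lie over 1 apart, and eIF2, eEF1A, eEF2 and the release factors, and other members where shown. Other lists name the 2 highest and 2 lowest. Product descriptions and sequences were not used here, so synthetases and other factors were listed by symbol after the design was set, and planned promoter and protein comparisons were not run.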

Additional observations from a re-analysis of the deposited data

How the results depend on the processing

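With all 4 arrays kept, the members called lower numbered 25 to 31 in mmi1-ts3, where 17.8% to 24.6% of all tested genes were. In the wild type they numbered 18 to 25, where 14.1% to 19.4% of all tested genes were. Between the strains 0 members differed under any alternative. With the array set as a replicate block, 28 members were called lower in mmi1-ts3 and 24 in the wild type, and 0 differed. Of all tested genes, 24.3% and 19.3% were called lower in that setting. Record order gives the replicate numbers, so the block is no pairing. Without either wild-type array, 26 members were called lower in mmi1-ts3, where 20.4% to 20.5% of all tested genes were. Without either mmi1-ts3 array, 20 were called lower in the wild type, where 13.1% to 14% of all were. The lower counts came with an array of the strain itself left out, and their shares of all tested genes are given above. With 1 array left out, counts thus ran from 12 to 26 in mmi1-ts3 and from 8 to 20 in the wild type. The member medians then ran from −0.97 to −0.83 in mmi1-ts3 and from −0.84 to −0.78 in the wild type, and 20 to 24 members lay below and 1 to 8 above, where 33.7% to 46.3% and 22.2% to 29.9% of all tested genes did so, since 1 array of a strain overlaps less easily. The wild-type median was −0.92 after quantile normalization, −0.88 when centred on genes outside translation and −0.67 under the running median, and the median difference after quantile normalization was −0.094. Members with both mmi1-ts3 arrays below numbered 6 after quantile normalization (15.8% of all tested genes) and 10 under the running median (16.7%); members above numbered 2 with no centring (12.7%), 3 with scaling to a common spread (8.85%), 6 after quantile normalization (11.8%) and 2 under the running median (11.4%). The causes were not tested.

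Responses or differences near 0 changed sign. With no centring tif52 had 0.0375 in mmi1-ts3 and tif306 a strain difference of 0.003; with scaling the tif306 difference was 0.034. After quantile normalization the differences were 0.039 for eft202, 0.13 for tif306, 0.003 for tif307 and 0.045 for tif5. Under the running median tef102 had −0.15 in mmi1-ts3 and −0.26 in the wild type, tif452 had 0.0625 in mmi1-ts3 and 0.15 in the wild type, tef103 had 0.20 in the wild type, and the differences were −0.14 for tef5, −0.13 for tif310 and −0.002 for tif6. With 1 array left out, differences ran from −0.59 to 0.088 for eif21, −0.14 to 0.25 for tef102, −0.087 to 0.19 for tef5, −0.79 to 0.29 for tif1102, −0.0025 to 0.20 for tif225, −0.56 to 0.18 for tif303, −0.16 to 0.034 for tif306, −0.40 to 0.079 for tif307, −0.09025 to 0.13 for tif310, −0.45 to 0.31 for tif452 and −0.17 to 0.43 for tif6. Responses ran from −0.028 to 0.002 for tif52 in mmi1-ts3, and in the wild type from −0.28 to 0.073 for tef101, −0.034 to 0.35 for tef102, −0.25 to 0.089 for tef103 and −0.56 to 0.21 for tif452. Signal over background was not used here.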
